A study of Mus musculus with 12 samples.

Results

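The 34 genes described here encode the folding machinery of the endoplasmic reticulum (ER) and members of the unfolded protein response (UPR). They were taken by gene symbol from a list of chaperones, disulfide isomerases, sensors, degradation factors and translocation factors, and all 34 were found among the 56691 genes of each deposited table. The libraries hold mRNA of cultured 4T1 and EMT6 cells, mouse mammary tumour lines, each as knockout cells labelled sgNEDD4 (genotype KO) and as control cells (genotype WT), in 3 libraries per group and 12 in all. Per the labels, both lines grew in the same serum-containing DMEM and every library carries the same batch label. The labels name a single guide target, Nedd4, and no other allele or agent. The sources used here do not say whether the libraries of a group are separate cultures or clones, nor what the control cells received, so p-values measure the spread between these libraries, which may be technical.

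Proteins that enter the secretory pathway fold in the ER with the help of chaperones, above all BiP, and of enzymes that form disulfide bonds. When unfolded proteins accumulate, the sensors IRE1, ATF6 and PERK send signals to the nucleus. ATF6 and the XBP1 protein made from IRE1-spliced mRNA induce chaperone and degradation genes, while PERK acts through ATF4 on amino acid and stress genes. Secretory and tumour cells are known to rely on these genes for their protein load.

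Nedd4, the targeted gene and a HECT-type ubiquitin ligase, stood in 4T1 at 24.7, 24.9 and 25.3 FPKM in KO libraries, against 94.4, 97.6 and 93.5 FPKM in control libraries (log2 change -2.01 ± 0.04, SE). EMT6 cells had it at 12.1, 11.5 and 12.1 FPKM in KO libraries, against 122, 121 and 116 FPKM in control libraries (log2 change -3.34 ± 0.06). The KO libraries thus held less Nedd4 mRNA than every control library, 26.3% of the control mean in 4T1 and 9.89% in EMT6. FPKM are counts scaled by exonic gene length and library total, and each library held 13705612 to 19761604 counts. Among 4T1 libraries, 20937 to 21264 genes had a count in KO and 18836 to 19017 in control, and the nuclear RNA Malat1 stood at 479 to 560.2 CPM (counts relative to a fixed library size) in KO and 69.3 to 155 CPM in control. In EMT6 these values were 18119 to 18371 genes and 158 to 200.2 CPM in KO, and 18014 to 18833 genes and 189 to 449.6 CPM in control. The nuclear RNA Neat1 was separate between the groups in both lines, at 241 to 333 CPM in 4T1 KO and 51.6 to 84.6 in its control, and at 28.2 to 36.1 CPM in EMT6 KO and 66.8 to 138 in its control. The part of detected gene number and of nuclear RNA in the results below was not tested.

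Markers of other cell types were read beside the ER genes, since plasma cells and fibroblasts are rich in ER. Of 6 plasma cell markers, 1 (Sdc1, also made by epithelial cells) reached a mean of 1 FPKM in any group, with list sums of 47.0 to 49.1 FPKM in 4T1 KO and 85.5 to 87.8 in its control, and of 87.8 to 93.2 FPKM in EMT6 KO and 77.0 to 82.4 in its control. Of the others, Mzb1, Jchain and Irf4 stayed near 0 in all groups. Of 9 leukocyte markers, 2 to 3 per group reached 1 FPKM, summing to 26.3 to 29.3 FPKM in 4T1 KO and 24.2 to 26.8 in its control, and to 16.3 to 18.1 FPKM in EMT6 KO and 28.6 to 34.4 in its control, with Cd3e at 0 in every library. The 7 fibroblast markers summed to 5.26 to 5.48 FPKM in 4T1 KO and 4.88 to 5.83 in its control, and to 511 to 581 FPKM in EMT6 KO and 351 to 381 in its control, where Col1a1 and Col1a2 carried the sum and Lum was at 0. Of 4 tested in EMT6, 3 were called higher (Col1a1, Col1a2 and Col3a1) and 1 lower (Pdgfra, log2 change -0.20). Col3a1 had the largest change, averaging 6.77 FPKM in EMT6 KO and 0.0467 in its control (log2 change 7.09). Endothelial markers summed to 20.6 to 24.1 FPKM in 4T1 KO and 19.7 to 21.1 in its control, and to at most 1.32 FPKM in EMT6. Most of the 4T1 sum was Eng, called in neither line, at a mean of 21.9 FPKM in 4T1 KO and 19.6 in its control. Epithelial markers summed to 1412 to 1491 FPKM in 4T1 KO and 1933 to 2008 in its control, and 4 of 7 tested were called lower. EMT6 held little of the defining epithelial gene Cdh1 (under 0.01 FPKM on average in either group), and its epithelial sum of 379 to 393 FPKM in KO and 351 to 418 in control was mostly Krt8, which was called higher. Of 6 epithelial markers tested in EMT6, 4 were called lower (Krt18, Epcam, Krt7 and Krt14). Krt18 averaged 32.5 FPKM in EMT6 KO and 76.2 in its control, and the other 3 at most 0.687 FPKM in KO and 2.72 in control. The part of these marker differences in the results, those of Sdc1, Cd68, Cd14, Csf1r, collagens and keratins among them, was not tested.

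In 4T1 KO cells most of the ER genes were lower. Of 33 tested members, 24 were called lower, 2 higher (Herpud1 and Sil1) and 7 neither, by edgeR's quasi-likelihood test at an adjusted p under 0.05, and the median log2 change was -0.31, against 0.00 over all 13313 tested genes. In bulk RNA, fewer cells that express a gene and less RNA per cell cannot be told apart. The background is high: 57.0% of all tested 4T1 genes were called, 29.0% lower and 28.0% higher. In EMT6 KO cells the balance was the other way, with 16 members called higher, 8 lower and 9 neither and a median of 0.15, against a background of 56.0% called, 27.9% higher and 28.2% lower among 12890 genes. Called members ranged from 0.648-fold to 0.915-fold among those lower in 4T1, and from 1.12-fold to 1.54-fold among those higher in EMT6. The remaining member, Derl3, had at most 0.18 FPKM (0 to 7 counts) in any library and was not tested.

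The same balance is visible library by library. The median over the 33 members of log2 CPM minus the control mean was -0.28, -0.30 and -0.29 in 4T1 KO libraries, against -0.01, -0.01 and 0.01 in the controls. In EMT6 it was 0.16, 0.12 and 0.16 in KO libraries, against -0.06, 0.02 and 0.04 in the controls. KO and control FPKM were fully separated for 25 of the 33 members in 4T1 and for 28 in EMT6, against 61.6% and 62.3% of all tested genes. As a share of all counts, the members took 0.944 to 0.971% in 4T1 KO and 1.14 to 1.17% in 4T1 control, and 1.64 to 1.65% in EMT6 KO and 1.41 to 1.53% in EMT6 control. Relative to chromosome medians and by library totals alone, the members' 4T1 median was smaller in size, but by library totals alone the all-gene median moved too. Without a low-count filter the all-gene median in 4T1 was 0.12. Relative to the median change of its own chromosome the members' median in 4T1 was -0.21, and with scaling by library totals alone it was -0.23 with 20 members lower and 4 higher, while the median of all 4T1 genes moved to 0.08.

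**Figure D1:**
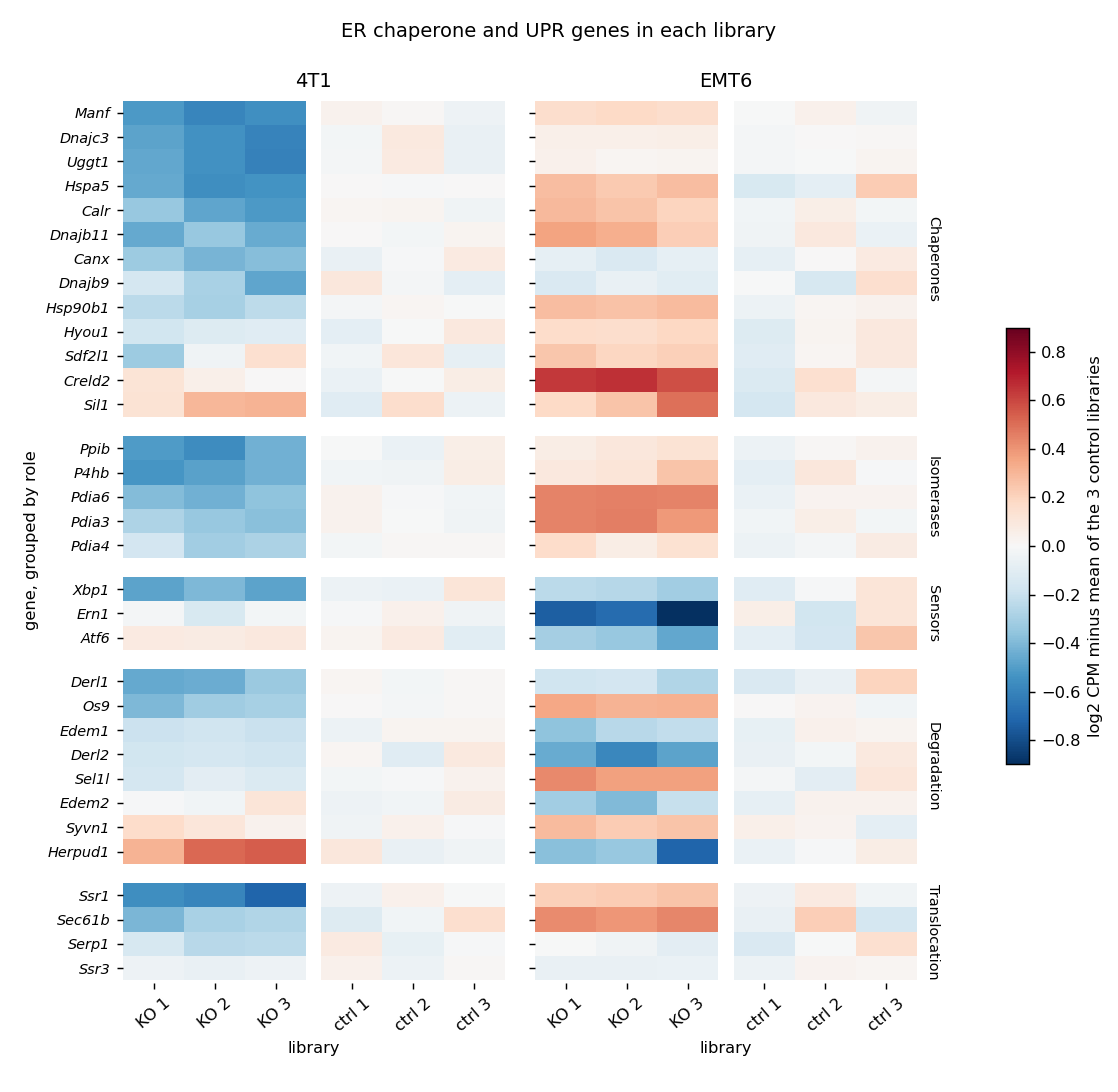
Heat map of the 33 tested members (rows, grouped by role) in the 12 libraries (columns), coloured by log2 CPM minus the mean of the 3 control libraries of the same line. The 4T1 KO columns are mostly blue (library medians -0.28 to -0.30) and the EMT6 KO columns mostly red among chaperones and isomerases (library medians 0.12 to 0.16), with the sensors and several degradation genes blue in EMT6.

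Promoter sequence is shown here because 11 members carry the ER stress element, the site through which ATF6 and XBP1 with the CCAAT factor NF-Y are known to act on chaperone genes. The element was searched as CCAAT, 9 bases and CCACG on either strand, and its variant ERSE-II as ATTGG, 1 base and CCACG, in 300 bases around each start (250 before, 50 after) from RefSeq's GRCm38.p6 promoters. Of 29 members with a promoter in that table, 9 held the first form and 2 the variant, against 0.119% and 0.0365% of 32851 promoters. Those with the first form are Hspa5, Hsp90b1, Calr, Canx, Creld2, Dnajc3, Pdia6, Syvn1 and Derl3, and those with the variant are Dnajb11 and Herpud1. The CCAAT box, which every match of the first form contains, was in 23 of the 29, against 37.4% of all promoters. The XBP1-type core TGACGTGG was in 0 of the 29 (0.676% of all), and the ATF4-type core TGATGCAA in 1, Herpud1 (0.895% of all), both read on either strand. The pieces below run 5′ to 3′ on the gene's strand, with the element in capitals on whichever strand it was found. The first 4 are the element-bearing members with the lowest adjusted p in 4T1, and Herpud1 was chosen after its values were seen.
Hspa5, chr2:34772015-34772053, plus strand: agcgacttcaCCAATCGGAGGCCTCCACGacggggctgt
Dnajc3, chr14:118937817-118937855, plus strand: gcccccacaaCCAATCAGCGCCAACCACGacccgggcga
Calr, chr8:84847065-84847103, minus strand: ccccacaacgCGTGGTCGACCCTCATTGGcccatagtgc
Pdia6, chr12:17266481-17266519, plus strand: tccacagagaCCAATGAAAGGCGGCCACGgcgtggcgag
Herpud1, chr8:94386307-94386397, plus strand: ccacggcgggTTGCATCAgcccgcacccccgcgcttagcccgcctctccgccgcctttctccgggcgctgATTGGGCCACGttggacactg
In Hspa5, Dnajc3 and Pdia6 the element reads in the direction of the gene, and in Calr it reads on the opposite strand. The first run of capitals in Herpud1 is the ATF4-type core, on the opposite strand, and the second is ERSE-II.

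Members with an element and those without one were read side by side. In 4T1, 7 of 10 tested members with an element were called lower and 1 higher (median -0.39), against 14 lower and 0 higher of 18 without one (median -0.28). In EMT6, 7 of 10 with an element were called higher and 1 lower (median 0.25), against 6 higher and 5 lower of 18 without one (median 0.06). Of all tested genes, 29.0% were called lower and 28.0% higher in 4T1, and 28.2% lower and 27.9% higher in EMT6. Calls in EMT6 made up 80% of tested members with an element and 61.1% of those without one, against 56.0% of all tested genes. Of the 11 element-bearing members, Herpud1 alone was called higher in 4T1 and lower in EMT6. The difference between members with and without an element was not tested.

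Hspa5 encodes BiP, the Hsp70 chaperone of the ER, and was the most abundant member in 4T1 controls. In 4T1 it stood at 372, 351 and 361 FPKM in KO libraries, against 496, 478 and 496 FPKM in control libraries. All KO values lay below all control values, and the log2 change was -0.52 ± 0.04 (SE, edgeR adjusted p = 1.96e-10). Its EMT6 values were 549.7, 536 and 552 FPKM in KO libraries, against 416, 425 and 537 FPKM in control libraries. There the groups overlapped, since 1 control library reached the KO level, and the log2 change was 0.25 ± 0.08 (edgeR adjusted p = 0.0195). The EMT6 call was lost on leaving out KO replicate 1 (edgeR adjusted p = 0.0567), KO replicate 3 (0.0527), control replicate 1 (0.0783) or control replicate 2 (0.0901).

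BiP works with J-domain partners, and Dnajc3, Dnajb11 and Dnajb9 were all called lower in 4T1. From here on, a value with ± in parentheses after FPKM is the log2 change of KO over control with its SE, computed after TMM scaling and therefore not the plain ratio of the FPKM. Dnajc3 (p58IPK), a J-domain cochaperone of BiP, stood in 4T1 at 14.3, 13.8 and 13.5 FPKM in KO libraries, against 19.1, 20 and 18.5 FPKM in control libraries (-0.54 ± 0.05, edgeR adjusted p = 8.02e-09), and in EMT6 at 42.4, 42.3 and 42.5 FPKM in KO libraries, against 40.8, 40.5 and 41.4 FPKM in control libraries (0.05 ± 0.05, adjusted p = 0.374). Its 4T1 KO libraries were all low, and in EMT6 its groups did not overlap but the change was not called. Dnajb11 (ERdj3), another J-domain cochaperone, stood in 4T1 at 24, 26.3 and 24.5 FPKM in KO libraries, against 31.9, 30.4 and 32.3 FPKM in control libraries (-0.42 ± 0.05). In EMT6 its level was 58.7, 57.4 and 53.5 FPKM in KO libraries, against 45, 48.5 and 44.3 FPKM in control libraries (0.30 ± 0.06, edgeR adjusted p = 0.000453). Thus KO libraries lay below the controls in 4T1 and above them in EMT6. Dnajb9 (ERdj4) averaged 7.31 ± 0.737 FPKM in KO libraries and 8.58 ± 0.637 FPKM in control libraries in 4T1 (SD, n = 3) and fell by 0.31 ± 0.10, a call lost without KO replicate 3 (edgeR adjusted p = 0.0544) or control replicate 1 (0.0565). In EMT6 it stood at -0.11 ± 0.08 and was not called.

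The nucleotide exchange factors, which release substrate from BiP, had unlike calls in 4T1. Hyou1 (GRP170) stood in 4T1 at 26, 27.2 and 27.7 FPKM in KO libraries, against 26.6, 27.5 and 30.1 FPKM in control libraries, values that overlap, with a log2 change of -0.14 ± 0.05 (edgeR adjusted p = 0.0178). EMT6 cells had it at 57, 56.7 and 58 FPKM in KO libraries, against 47.1, 51.3 and 54.6 FPKM in control libraries, with a log2 change of 0.17 ± 0.06 (adjusted p = 0.0243). The 4T1 change was the smallest among called chaperones. The 4T1 call was lost by library totals alone (log2 change -0.06, edgeR adjusted p = 0.32), in one fit of 12 libraries (0.079) and without KO replicate 1 (0.0649) or control replicate 3 (0.097). It was lost in EMT6 without any 1 of the KO libraries (0.0674 to 0.0759) or without control replicate 1 (0.104). Sil1, the other exchange factor, was higher in both lines, averaging 8.91 ± 0.684 FPKM in KO libraries and 7.11 ± 0.603 FPKM in control libraries in 4T1 (0.25 ± 0.08) and 12.2 ± 1.46 FPKM in KO libraries and 9.81 ± 0.852 FPKM in control libraries in EMT6 (0.31 ± 0.09). Its 4T1 call was lost on leaving out KO replicate 2 or 3 or control replicate 1 or 3 (edgeR adjusted p 0.0599 to 0.0878), which leaves 1 member called higher, and its EMT6 call without KO replicate 3 (0.0681) or control replicate 1 (0.0518).

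The lectin chaperones hold glycoproteins that carry a trimmed sugar. Calr (calreticulin) was the most abundant member in EMT6 controls and stood there at 644, 633 and 607 FPKM in KO libraries, against 521, 545 and 521 FPKM in control libraries (0.25 ± 0.06, edgeR adjusted p = 0.00138). In 4T1 it stood at 293, 269 and 264 FPKM in KO libraries, against 361, 353 and 348 FPKM in control libraries (-0.44 ± 0.05, adjusted p = 1.74e-08). KO libraries were low in 4T1 and high in EMT6, with no overlap in either. Its membrane-bound relative Canx (calnexin) fell in 4T1 by 0.38 ± 0.04, averaging 139 ± 3.78 FPKM in KO libraries and 171 ± 9.36 FPKM in control libraries, and in EMT6 was not called at -0.10 ± 0.06, except as lower without control replicate 1 (-0.14, edgeR adjusted p = 0.0499). Uggt1, which re-glucosylates unfolded glycoproteins so that they bind calnexin and calreticulin again, stood in 4T1 at 27, 25.7 and 24.9 FPKM in KO libraries, against 35.5, 37 and 34.3 FPKM in control libraries (-0.54 ± 0.05, edgeR adjusted p = 8.5e-10), and in EMT6 at 22.8, 22.5 and 22.6 FPKM in KO libraries, against 22.1, 21.8 and 22.7 FPKM in control libraries (0.03 ± 0.05). Its groups did not overlap in 4T1 and overlapped in EMT6.

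Hsp90b1 (GRP94), the Hsp90 of the ER, stood in 4T1 at 377, 366 and 385 FPKM in KO libraries, against 426, 425 and 428 FPKM in control libraries (-0.26 ± 0.04). Its EMT6 values were 502, 499.9 and 507 FPKM in KO libraries, against 404, 417 and 428 FPKM in control libraries (0.27 ± 0.06, edgeR adjusted p = 0.000497). It followed BiP in direction in both lines, without the overlap. Manf, a small ER stress-induced protein that binds BiP and is secreted, stood in 4T1 at 49.6, 47.3 and 49.1 FPKM in KO libraries, against 70.1, 66.9 and 66.2 FPKM in control libraries (-0.56 ± 0.04, adjusted p = 2.04e-10), and in EMT6 at 91.3, 92.8 and 91.9 FPKM in KO libraries, against 82.5, 83.6 and 80.4 FPKM in control libraries (0.17 ± 0.05). The EMT6 call of Manf was lost without KO replicate 2 (edgeR adjusted p = 0.0655). Over the 12 libraries together, single overlapping genes (Dcaf1 and Rbm15b among them) carried up to 40.3% as many counts as Manf. Part of its reads may therefore not be its own. Creld2, an ER stress-induced protein of the ER lumen, had the largest increase of any member in EMT6, at 68.8, 69.7 and 66.3 FPKM in KO libraries, against 40.8, 48.4 and 44 FPKM in control libraries (0.62 ± 0.07, edgeR adjusted p = 1.41e-06). In 4T1 it stood at 25.9, 24.9 and 24.3 FPKM in KO libraries, against 22, 22.3 and 24 FPKM in control libraries, where KO values were higher per library total but not called after TMM scaling (0.06 ± 0.07, adjusted p = 0.496). Sdf2l1, which works with ERdj3 and BiP, averaged 63.1 ± 1.1 FPKM in KO libraries and 54.3 ± 3.71 FPKM in control libraries in EMT6 (0.22 ± 0.07), a call lost without KO replicate 1 (edgeR adjusted p = 0.0541), and ranged from 16.7 to 23.6 FPKM over 4T1 KO libraries around a control range of 19.1 to 21.3 FPKM. In all, 10 of 13 chaperones and cochaperones were called lower and 1 higher in 4T1, and 9 higher and 0 lower in EMT6. The all-gene shares were 29.0% lower and 28.0% higher in 4T1, and 27.9% higher and 28.2% lower in EMT6.

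**Figure D2:**
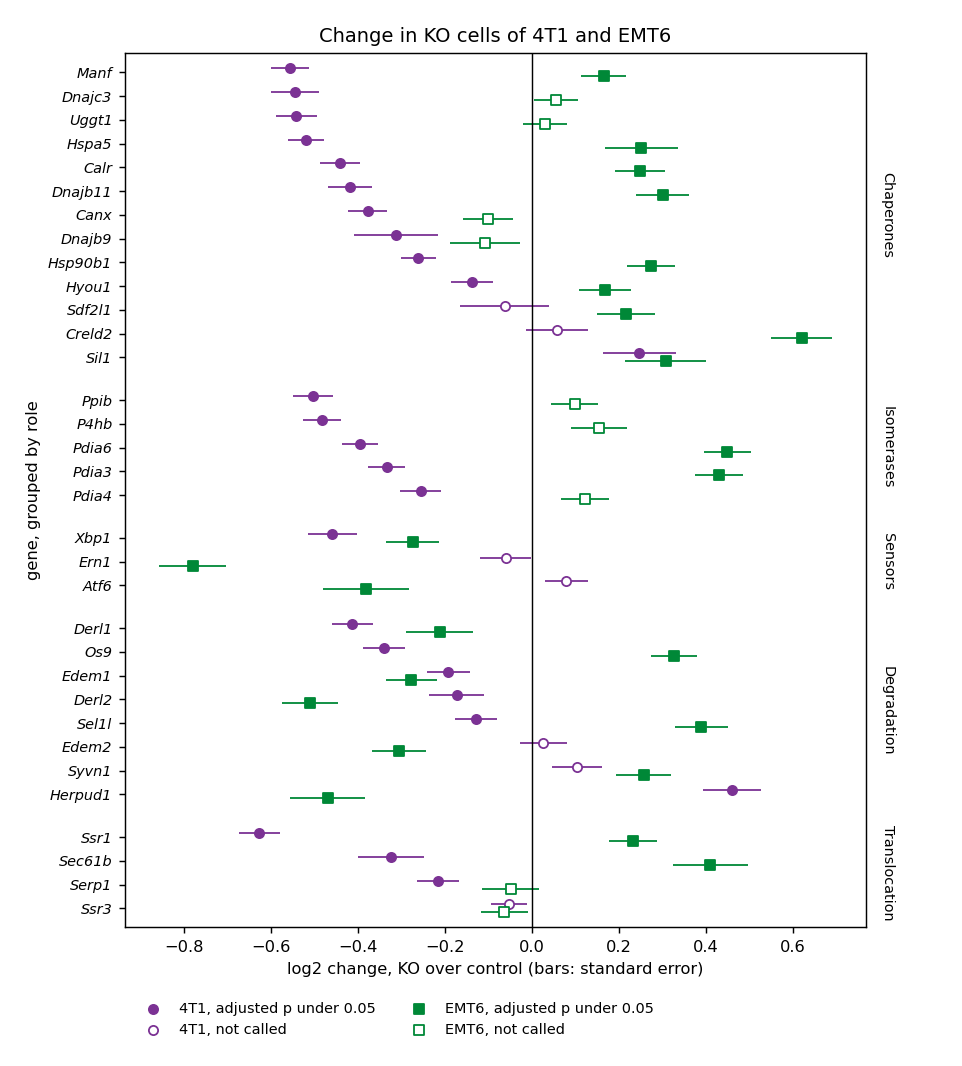
Log2 change of KO over control for the 33 tested members, with standard errors as bars; circles are 4T1, squares are EMT6, and filled marks passed an adjusted p of 0.05. Purple circles of chaperones and isomerases lie mostly left of 0 and green squares mostly right, while Herpud1 has its circle at 0.46 and its square at -0.47.

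All 5 isomerases were called lower in 4T1, against 29.0% of all tested genes. Pdia6, a protein disulfide isomerase, stood there at 101, 98.6 and 105 FPKM in KO libraries, against 131, 123 and 125 FPKM in control libraries (-0.39 ± 0.04, edgeR adjusted p = 2.19e-08), and in EMT6 at 275, 278 and 276 FPKM in KO libraries, against 196, 204 and 208 FPKM in control libraries (0.45 ± 0.05, adjusted p = 2.76e-06). Pdia3 (ERp57), the isomerase that works with calnexin and calreticulin, stood in 4T1 at 236, 227 and 225 FPKM in KO libraries, against 283, 269 and 269 FPKM in control libraries (-0.33 ± 0.04). In EMT6 its level was 445, 449 and 428 FPKM in KO libraries, against 322, 337 and 323 FPKM in control libraries (0.43 ± 0.06, edgeR adjusted p = 5.98e-06). For both enzymes the KO libraries were separate from the controls in each line, below them in 4T1 and above them in EMT6. These were the 2 isomerases called in EMT6, a share of 40%, below the 56.0% of all tested genes. Ppib (cyclophilin B), a prolyl isomerase, stood in 4T1 at 80.6, 78 and 86.5 FPKM in KO libraries, against 111, 103 and 115 FPKM in control libraries (-0.50 ± 0.05), and in EMT6 at 48.7, 50.1 and 51 FPKM in KO libraries, against 45.4, 46.5 and 48.2 FPKM in control libraries (0.10 ± 0.05, adjusted p = 0.129). P4hb, protein disulfide isomerase itself and a subunit of collagen prolyl hydroxylase, averaged 151 ± 6.63 FPKM in KO libraries and 200.0 ± 9.88 FPKM in control libraries in 4T1 (-0.48 ± 0.04) and 495 ± 31.5 FPKM in KO libraries and 446 ± 24.9 FPKM in control libraries in EMT6 (0.15 ± 0.06). Its EMT6 value lay just outside the threshold (edgeR adjusted p = 0.0514), and it was called higher there by DESeq2 (0.0439), limma-voom (0.0389), library totals alone (0.0418), without a low-count filter (0.00672), in one fit of 12 libraries (0.0159) and without control replicate 2 (0.0128). Pdia4 (ERp72) fell by 0.25 ± 0.05 in 4T1 and stood at 0.12 ± 0.06 in EMT6 (adjusted p = 0.0698), where it was called higher without a low-count filter (0.0386), in one fit of 12 libraries (0.0329) and without control replicate 3 (0.018).

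The sensors Ern1 and Atf6 and the transcription factor Xbp1 were all called lower in EMT6, where none of the 13 member chaperones was. Xbp1 was also called lower in 4T1. A call of lower was made for 28.2% of all tested genes in EMT6 and 29.0% in 4T1. Ern1 encodes IRE1, the kinase and nuclease that splices Xbp1 mRNA, and had the largest decrease of any member in EMT6, at 14.1, 14.6 and 12.6 FPKM in KO libraries, against 24.8, 20.7 and 25.7 FPKM in control libraries (-0.78 ± 0.08, edgeR adjusted p = 1.2e-06). In 4T1 it stood at 6.82, 6.32 and 6.93 FPKM in KO libraries, against 6.61, 6.69 and 6.49 FPKM in control libraries (-0.06 ± 0.06, adjusted p = 0.394). The EMT6 KO libraries were all low, at 58% of the control mean, while the 4T1 groups overlapped. Atf6, the membrane-bound transcription factor that is cut free under stress, stood in EMT6 at 16.4, 16 and 14.8 FPKM in KO libraries, against 19.3, 18 and 24.3 FPKM in control libraries (-0.38 ± 0.10, edgeR adjusted p = 0.00826). In 4T1 it stood at 19.1, 19.1 and 19.6 FPKM in KO libraries, against 17.6, 17.9 and 16.2 FPKM in control libraries (0.08 ± 0.05, adjusted p = 0.165). It was low in EMT6 KO libraries, and in 4T1 it became a call in the other direction with scaling by library totals alone (log2 change 0.16, edgeR adjusted p = 0.00493) or without control replicate 2 (0.12, 0.0427). Xbp1, the transcription factor whose mRNA IRE1 splices, was lower in both lines. It stood in 4T1 at 20.1, 21.3 and 20.4 FPKM in KO libraries, against 26, 25.2 and 29.2 FPKM in control libraries (-0.46 ± 0.06), and in EMT6 at 44.3, 43.9 and 42.3 FPKM in KO libraries, against 49.2, 51.5 and 57.2 FPKM in control libraries (-0.27 ± 0.06, edgeR adjusted p = 0.00118). Gene counts do not separate spliced from unspliced Xbp1 mRNA, and ATF6 cleavage is not seen in RNA, so the activity of either branch was not measured.

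**Figure D3:**
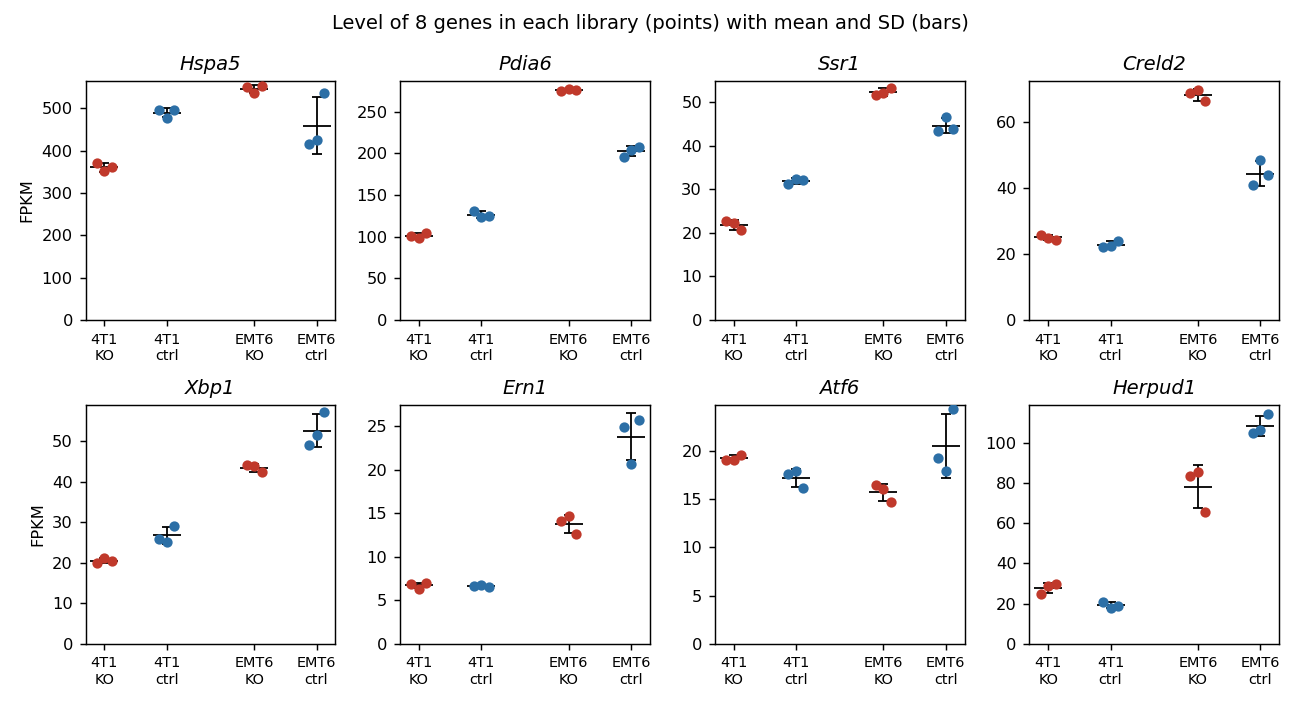
FPKM of 8 members in every library (points: KO red, control blue), with the mean and SD of 3 libraries as bars and axes starting at 0. Hspa5, Pdia6 and Ssr1 are lower in 4T1 KO and higher on average in EMT6 KO, Ern1 falls to 12.6 to 14.6 FPKM in EMT6 KO against 20.7 to 25.7 FPKM in control, and Herpud1 moves oppositely to Pdia6 in each line.

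Degradation genes, which remove misfolded proteins through the HRD1 complex, were mixed in both lines. Of 8 tested, 5 were called lower and 1 higher in 4T1, and 5 lower and 3 higher in EMT6. Across all tested genes the shares were 29.0% lower and 28.0% higher in 4T1, and 28.2% lower and 27.9% higher in EMT6. Herpud1, a stress-induced scaffold of the HRD1 complex, had the opposite pattern to BiP. In 4T1 it stood at 24.9, 28.8 and 29.7 FPKM in KO libraries, against 20.7, 17.9 and 18.8 FPKM in control libraries (0.46 ± 0.07, edgeR adjusted p = 2.43e-06). In EMT6 it stood at 83.2, 85.5 and 65.8 FPKM in KO libraries, against 105, 106 and 114 FPKM in control libraries (-0.47 ± 0.09, adjusted p = 0.000707). The groups did not overlap in either line, with KO high in 4T1 and low in EMT6, lowest in KO replicate 3. Sel1l, the adaptor of the HRD1 ligase, stood in EMT6 at 21.2, 20.3 and 20.4 FPKM in KO libraries, against 15.7, 14.6 and 17 FPKM in control libraries (0.39 ± 0.06), and in 4T1 at 12.1, 12.7 and 12.6 FPKM in KO libraries, against 12.8, 12.6 and 13.3 FPKM in control libraries (-0.13 ± 0.05). The 4T1 values of Sel1l overlapped, and that call was lost by library totals alone (log2 change -0.05, edgeR adjusted p = 0.416), in one fit of 12 libraries (0.105), by DESeq2 (0.0556) and without KO replicate 1 (0.0731) or control replicate 3 (0.062). Os9, a lectin that hands glycoproteins to the ligase, stood in 4T1 at 35.2, 37.8 and 38.7 FPKM in KO libraries, against 45.2, 43.2 and 45.3 FPKM in control libraries (-0.34 ± 0.05). EMT6 cells had it at 61.9, 60.5 and 61 FPKM in KO libraries, against 49.3, 49.2 and 47.9 FPKM in control libraries (0.33 ± 0.05, edgeR adjusted p = 5.85e-05), so KO was low in 4T1 and high in EMT6.

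The derlins Derl1 and Derl2, parts of the exit channel, and Edem1 and Edem2, mannosidase-like proteins that mark glycoproteins for removal, were called lower in EMT6. Derl2 stood there at 9.03, 8.25 and 8.86 FPKM in KO libraries, against 11.9, 12.1 and 13.3 FPKM in control libraries (-0.51 ± 0.06, edgeR adjusted p = 4.44e-06), and in 4T1 at 5.42, 5.52 and 5.5 FPKM in KO libraries, against 5.98, 5.33 and 6.26 FPKM in control libraries (-0.17 ± 0.06). Its 4T1 groups overlapped, that call was lost by library totals alone (log2 change -0.09, edgeR adjusted p = 0.242), in one fit of 12 libraries (0.0574), by DESeq2 (0.0617) and without control replicate 1 (0.0731) or control replicate 3 (0.0936). Over the 12 libraries together, the overlapping gene Mis12 carried 93.7% as many counts as Derl2. Derl1 fell by 0.41 ± 0.05 in 4T1 and by 0.21 ± 0.08 in EMT6, averaging 51.2 ± 1.92 FPKM in KO libraries and 59.4 ± 7.72 FPKM in control libraries in EMT6. The EMT6 call of Derl1 was lost without control replicate 3 (log2 change -0.11, edgeR adjusted p = 0.113) and without any 1 of the KO libraries (0.0512 to 0.122). Edem1 fell in both lines, by 0.19 ± 0.05 in 4T1 (not called by library totals alone, -0.11, edgeR adjusted p = 0.0628) and 0.28 ± 0.06 in EMT6, and Edem2 in EMT6 by 0.31 ± 0.06, with 26.5 to 30.3 FPKM in KO libraries and 33.3 to 36.0 FPKM in controls. Syvn1, the HRD1 ligase itself, rose in EMT6 by 0.26 ± 0.06 and stood at 0.10 ± 0.06 in 4T1, where it was called higher by library totals alone (0.18, edgeR adjusted p = 0.0101). Single overlapping genes, Mrpl49 among them, carried up to 79.1% as many counts as Syvn1 over the 12 libraries together.

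Among genes of protein entry into the ER, 3 of 4 were called lower in 4T1 and 2 of 4 higher in EMT6. The all-gene shares were 29.0% lower in 4T1 and 27.9% higher in EMT6. With calls in either direction counted, 50% of these genes were called in EMT6, below the 56.0% of all tested genes. Ssr1, a subunit of the translocon-associated TRAP complex, had the largest change of any member in 4T1, at 22.6, 22.3 and 20.6 FPKM in KO libraries, against 31.2, 32.4 and 32.1 FPKM in control libraries (-0.63 ± 0.05, edgeR adjusted p = 7.3e-11). Its EMT6 values were 51.5, 52.1 and 53.2 FPKM in KO libraries, against 43.4, 46.5 and 43.7 FPKM in control libraries (0.23 ± 0.05, adjusted p = 0.00176). Its partner subunit Ssr3 was called in neither line (-0.05 ± 0.04 in 4T1 and -0.06 ± 0.05 in EMT6) at 171 to 176 FPKM in 4T1 KO libraries and 161 to 176 FPKM in controls. The difference between these subunits was not tested. Sec61b, a subunit of the translocation channel, stood in 4T1 at 23.3, 25.6 and 26.2 FPKM in KO libraries, against 27.5, 28.4 and 33.1 FPKM in control libraries (-0.32 ± 0.08). In EMT6 its level was 46.3, 45.5 and 47.1 FPKM in KO libraries, against 33.4, 39.9 and 31.2 FPKM in control libraries (0.41 ± 0.09, edgeR adjusted p = 0.000722), low in 4T1 KO and high in EMT6 KO. Serp1 (RAMP4), a small protein bound to the channel, fell in 4T1 by 0.22 ± 0.05 with overlapping FPKM and was not called in EMT6 (-0.05 ± 0.07). Its overlapping gene Eif2a carried 30.5% as many counts over the 12 libraries together.

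The difference between the lines was tested directly, as the KO effect of EMT6 minus that of 4T1 in a fit of all 12 libraries. Of 33 members, 24 differed, 19 with a higher effect in EMT6 and 5 with a lower one, against 59.9% of 12006 genes in all (29.7% higher and 30.2% lower). All 24 kept the call under every alternative listed in the methods. The difference was largest in the positive direction for Ssr1 (0.84 ± 0.07), Pdia6 (0.82 ± 0.06), Hspa5 (0.75 ± 0.10) and Pdia3 (0.74 ± 0.07), and the 5 negative ones were Herpud1 (-0.95 ± 0.13), Ern1 (-0.74 ± 0.10), Atf6 (-0.48 ± 0.12), Derl2 (-0.36 ± 0.09) and Edem2 (-0.35 ± 0.08). By role, 10 of 13 chaperones and 5 of 5 isomerases had the higher effect in EMT6, while 2 of 3 sensors had the lower one. Xbp1 did not pass the test (0.16 ± 0.08, edgeR adjusted p = 0.095), and it did without EMT6 control replicate 3 (0.0127), as did Derl1 (0.00078), Serp1 (0.00845) and Sdf2l1 (0.0356). All 4 also passed it without a low-count filter (edgeR adjusted p 0.00853 to 0.0249), and Sdf2l1 without 4T1 KO replicate 3 (0.0103).

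Some members were called in opposite directions. In all, 12 were called lower in 4T1 and higher in EMT6, namely Hspa5, Hsp90b1, Hyou1, Calr, Manf, Dnajb11, Pdia3, Pdia6, Sel1l, Os9, Sec61b and Ssr1, and 8 of them kept both calls under every alternative (not Hspa5, Hyou1, Manf or Sel1l). Over all genes tested in both lines, 10.2% had this pair of calls. The reverse pair was found in 1 member, Herpud1, against 9.42% of all genes. Another 4 were called lower in both lines (Xbp1, Derl1, Derl2 and Edem1), against 7.85% of all genes, and Sil1 was called higher in both, against 7.06%. Lower in 4T1 and not called in EMT6 were 8 members, against 12.03% of all genes. Called in EMT6 alone were 3 higher and 3 lower, against 10.7% and 10.6% of all genes.

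Levels of the members spanned a wide range but kept much the same order in both lines. In 4T1 controls, Hspa5, Hsp90b1, Calr and Pdia3 ranked highest in FPKM, and in EMT6 controls Calr, Hspa5, P4hb and Hsp90b1, with Derl3 lowest in both. Across the 34 members, log2 control FPKM of EMT6 and 4T1 correlated with r = 0.96 (Spearman 0.89), and gene length and annotation are shared by the points. The log2 changes correlated little between the lines (r = -0.25, Spearman -0.14, 33 members). In 4T1 the abundant members tended to have the more negative log2 changes (r = -0.48 between control level and change), and in EMT6 the relation was weak (r = 0.26). The control level enters both measures. These are descriptions over genes, which are not independent replicates.

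The rest of the pathway was read from 8 lists of genes that are not members. Genes of protein entry, glycosylation and export were mostly lower in 4T1 and more often higher than lower in EMT6. Over all tested genes, 29.0% were called lower and 28.0% higher in 4T1, and 28.2% lower and 27.9% higher in EMT6. For the translocon in EMT6, the share called higher was near that of all genes, and 43.5% were called in all, against 56.0%. In 4T1, 16 of 22 tested translocon and signal peptidase genes were called lower and 1 higher (median -0.20), 13 of 18 N-glycosylation genes lower and 2 higher (median -0.25), and 14 of 22 ER export genes lower and 3 higher (median -0.19). In EMT6, 7 of 23 translocon genes were called higher and 3 lower (median 0.03, and between -0.01 without control replicate 1 and 0.06 without control replicate 3), 10 of 18 N-glycosylation genes higher and 2 lower (median 0.16), and 10 of 22 ER export genes higher and 3 lower (median 0.14). Tram1, a protein beside the channel, stood in 4T1 at 36.8 ± 0.58 FPKM in KO libraries and 54.9 ± 3.77 FPKM in control libraries (-0.66 ± 0.05) and in EMT6 at 64.4 ± 3.15 FPKM in KO libraries and 53.7 ± 1.41 FPKM in control libraries (0.26 ± 0.06). Sec61a1, the pore subunit, fell by 0.50 ± 0.04 in 4T1. In the signal recognition particle, Srp9 rose in EMT6 by 0.57 ± 0.06 and Srp68 fell by 0.51 ± 0.05. Rpn1 and Stt3a, subunits of the oligosaccharyltransferase, fell in 4T1 by 0.57 ± 0.04 and 0.47 ± 0.04, and 2 others, Ddost and Tmem258, rose in EMT6 by 0.39 ± 0.05 and 0.41 ± 0.07. The cargo receptor Tmed10 and Kdelr2, the receptor that returns escaped chaperones, fell in 4T1 by 0.47 ± 0.04 and 0.53 ± 0.05, and the cargo receptors Tmed9 and Lman2 rose in EMT6 by 0.51 ± 0.06 and 0.47 ± 0.06. With scaling by library totals alone the 4T1 counts were 9 lower and 4 higher for the translocon, 10 lower and 2 higher for N-glycosylation and 10 lower and 5 higher for ER export. Without KO replicate 2, 1 ER export gene was called higher in 4T1, and without any 1 KO library or without control replicate 2 or 3, 1 N-glycosylation gene was called lower in EMT6.

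Further chaperones, isomerases and degradation genes were called in both directions in 4T1. Calls made up 57.1%, 61.9% and 48% of these lists, against 57.0% of all tested 4T1 genes (29.0% lower and 28.0% higher). In EMT6 they made up 61.9%, 59.1% and 60%, against 56.0% of all (27.9% higher and 28.2% lower). In neither line did the share called lie far above that of all genes. Of 21 further ER chaperones, 7 were called lower and 5 higher in 4T1 (median -0.05) and 11 higher and 2 lower in EMT6 (median 0.25). Crtap, a partner in collagen modification, fell in 4T1 by 0.61 ± 0.06, and Dnajb14, a J-domain protein of the ER membrane, rose by 0.72 ± 0.07. In EMT6, Tapbp (tapasin), which helps load MHC class I, stood at 157 ± 2.55 FPKM in KO libraries and 66.9 ± 4.45 FPKM in control libraries (1.23 ± 0.06), and Rcn3, a calcium-binding ER protein, at 9.72 ± 0.133 FPKM in KO libraries and 3.34 ± 0.431 FPKM in control libraries (1.53 ± 0.12). Of the further isomerases and oxidases, 7 of 21 were called lower and 6 higher in 4T1 (median -0.09), and 10 of 22 higher and 3 lower in EMT6 (median 0.04). Tmx1 and Erp29 fell in 4T1 by 0.62 ± 0.05 and 0.51 ± 0.05, and in EMT6 the peroxidase Gpx8 rose by 0.88 ± 0.07 and Txndc16, at under 1 FPKM, by 2.25 ± 0.18. Of 25 further degradation genes, 10 were called lower and 2 higher in 4T1 (median -0.12, and -0.06 without KO replicate 2), and 11 higher and 4 lower in EMT6 (median 0.14, and 0.09 without KO replicate 1). Rnf139 (a membrane ligase) and Faf2 fell in 4T1 by 0.50 ± 0.05 and 0.53 ± 0.06, while Edem3 rose in EMT6 by 0.66 ± 0.07 and the lectin Erlec1 fell by 0.64 ± 0.08. By library totals alone the 4T1 median of the further chaperones was 0.03, with 4 lower and 6 higher, that of the isomerases and oxidases -0.01, and the degradation genes gave 7 lower and 5 higher (median -0.04). With a library left out, the EMT6 median of the isomerases and oxidases ranged from 0.02 (without KO replicate 1 or control replicate 1) to 0.06 (without control replicate 3), and the 4T1 median of the further chaperones reached -0.10 without control replicate 3. Without KO replicate 3 the further chaperones called higher in 4T1 numbered 3, and without KO replicate 1, KO replicate 3 or control replicate 3 those called lower in EMT6 numbered 1.

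Genes of the PERK and ATF4 branch were mostly called higher in 4T1 and lower in EMT6, the other direction from most called chaperones among the members. Of 15 tested genes, 12 were called higher and 1 lower in 4T1 (median 0.41), and 2 higher and 11 lower in EMT6 (median -0.77), and 13 had a lower KO effect in EMT6 than in 4T1. Over all tested genes, 28.0% were called higher in 4T1, 28.2% were called lower in EMT6 and 30.2% had a lower KO effect in EMT6. Slc7a11, the cystine importer, stood in 4T1 at 1.3 ± 0.133 FPKM in KO libraries and 0.437 ± 0.0416 FPKM in control libraries (1.5 ± 0.12), and in EMT6 at 17.7 ± 2.09 FPKM in KO libraries and 62.6 ± 5.19 FPKM in control libraries (-1.82 ± 0.09). Asns, asparagine synthetase, stood in 4T1 at 99.7 ± 5.37 FPKM in KO libraries and 54.9 ± 3.79 FPKM in control libraries (0.78 ± 0.05), and Ddit4, a stress-induced inhibitor of mTOR signalling, in EMT6 at 83.9 ± 5.79 FPKM in KO libraries and 164 ± 2.93 FPKM in control libraries (-0.97 ± 0.06). Exactly 9 genes were called higher in 4T1 and lower in EMT6, the pair of calls that Herpud1 had: Atf4, Ddit3, Trib3, Ppp1r15a, Chac1, Atf3, Sesn2, Nupr1 and Slc7a11. This pair was found in 9.42% of all genes tested in both lines. The ATF4-type core was not counted for this list, and a link of these genes to Herpud1 was not tested. Atf4 itself, named after its values were seen, had a log2 change of 0.13 ± 0.04 in 4T1 and -0.48 ± 0.08 in EMT6. The EMT6 count of lower genes was 7 and the median -0.50 without control replicate 3. Eif2ak3, which encodes PERK, was called in neither line (-0.05 ± 0.09 and 0.09 ± 0.08). Of the other UPR transducers and partners, 5 of 13 were called lower and 3 higher in 4T1 (median -0.05, 0.03 by library totals alone, and between -0.10 without control replicate 3 and -0.0024 without KO replicate 3), and 4 of 14 lower and 4 higher in EMT6 (median 0.09; 1 lower without KO replicate 1 or 3). The share called was 61.5% in 4T1 and 57.1% in EMT6, near the 57.0% and 56.0% of all tested genes. Among these transducers and partners, Yy1 and the RNA ligase Rtcb, which joins spliced Xbp1, fell in 4T1 by 0.44 ± 0.04 and 0.35 ± 0.04. In EMT6 the NF-Y subunit Nfyc rose by 0.71 ± 0.08 and Creb3l1, a relative of ATF6, fell by 1.15 ± 0.13.

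**Figure D4:**
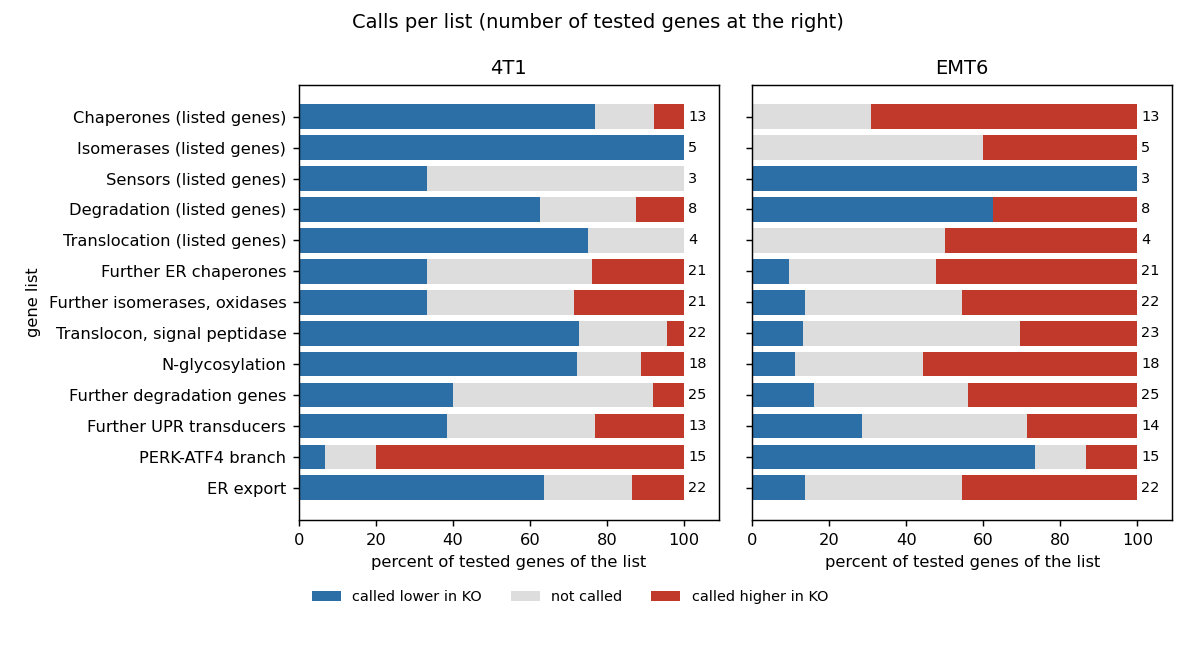
Share of the tested genes of each list that were called lower (blue), not called (grey) or called higher (red) in KO cells, for 4T1 (left) and EMT6 (right), with the number tested at the right of each bar. The PERK-ATF4 bar is mostly red in 4T1 (12 of 15) and mostly blue in EMT6 (11 of 15), the reverse of the listed chaperones (10 of 13 blue in 4T1, 9 of 13 red in EMT6).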

How the data were processed

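The authors deposited, for each line, a table of 56691 genes with raw read counts and FPKM for 6 libraries; per the file headers, control columns are named WT. Per the submitters' processing notes the tools were cutadapt 1.9.1, HISAT2 2.2.1, HTSeq 0.6.1 and DESeq2, run against GRCm38; the sources used here do not give the role of each. FPKM recomputed from counts, library totals and exonic gene size matched all 340146 deposited FPKM of each line within 0.0051. Gene coordinates in the tables differ from a GRCm38 annotation and are not printed. The sources used here do not say whether reads were counted by strand, so the 15 members that overlap another gene may share reads with it.

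Counts were analysed with edgeR 4.0.16 in R 4.3.3, each line on its own: low genes were removed (filterByExpr), libraries scaled by TMM, and KO compared with control by the robust quasi-likelihood test. P-values are 2-sided, adjusted by Benjamini-Hochberg over all tested genes, and called under 0.05. The SE of a log2 change was derived from the test, as its absolute value divided by the square root of the quasi-likelihood F statistic. The KO effect of EMT6 minus that of 4T1 was tested in a fit of 12 libraries over genes that passed in both lines. Between libraries of a group, the biological coefficient of variation came to 4.82% (4T1) and 6.73% (EMT6). In a library, 3 counts amount to 0.152 to 0.219 CPM, and this covers counting error only. The pipeline was checked on simulated counts.

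The alternatives were DESeq2 1.42.0, limma-voom (limma 3.58.1), DESeq2 size factors in edgeR, library totals only, no low-count filter, one fit of 12 libraries, a replicate block, leaving out each library, and, for medians, centring each gene on its chromosome. The members and lists were chosen with earlier results of these data known. Values per library are given for the 6 called members with the largest change in each line, for Xbp1, Ern1 and Atf6, and for members called in opposite directions, and the other lists contribute up to 2 called genes per line with the lowest adjusted p. Promoters are RefSeq's, for GRCm38.p6, matched by symbol.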

Additional observations from a re-analysis of the deposited data

Results flagged for a closer look

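The KO effect differed between the lines for 24 members, each by the test of the difference itself (edgeR, adjusted p under 0.05). Values are the log2 KO effect of EMT6 minus that of 4T1. Among chaperones and cochaperones the differences were 0.75 for Hspa5, 0.51 for Hsp90b1, 0.28 for Hyou1, 0.67 for Calr, 0.26 for Canx, 0.55 for Uggt1, 0.70 for Manf, 0.54 for Creld2, 0.58 for Dnajc3 and 0.70 for Dnajb11. Among isomerases they were 0.74 for Pdia3, 0.36 for Pdia4, 0.82 for Pdia6, 0.62 for P4hb and 0.58 for Ppib. Both sensors with a difference had a negative one, -0.74 for Ern1 and -0.48 for Atf6. Among degradation genes the differences were -0.95 for Herpud1, -0.36 for Derl2 and -0.35 for Edem2, with 0.50 for Sel1l and 0.65 for Os9 in the other direction. Among translocation genes they were 0.71 for Sec61b and 0.84 for Ssr1. Groups of 3 libraries were not screened for single outlying values.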

How the results depend on the processing

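All 24 differences between the lines kept their direction and call under every alternative. Of the 26 calls in 4T1, 6 members lost theirs under at least 1 alternative, and of the 24 in EMT6, 6 did, as given beside each gene. By library totals alone Hyou1, Sel1l, Derl2 and Edem1 lost the 4T1 call. The 4T1 median of -0.31 was -0.21 with chromosome centring, -0.23 by library totals alone and -0.29 in one fit of 12 libraries, and -0.32 to -0.26 with a library left out. The EMT6 median of 0.15 ranged from 0.11 to 0.18 with a library left out. Members called higher in 4T1 numbered 4 by library totals alone and 1 to 3 with a library left out. Uncalled values near 0 changed sign. By library totals alone, Sdf2l1, Ern1 and Ssr3 stood in 4T1 at 0.019, 0.020 and 0.026. Without a low-count filter, Edem2 stood in 4T1 at -0.0036 and the difference of Ssr3 at 0.051. With a library left out, Sdf2l1 in 4T1 ranged from -0.18 to 0.051, Edem2 in 4T1 from -0.025 to 0.058, Serp1 in EMT6 from -0.11 to 0.022 and the difference of Sil1 from -0.047 to 0.11, which was -0.020 by library totals alone. The cause of these changes was not tested.

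Libraries with the same replicate number did not deviate together: correlations of their deviations from the group means were -0.02, -0.01 and 0.01 in 4T1 and -0.13, -0.01 and -0.11 in EMT6. Those of unlike number reached 0.05 in 4T1 and 0.13 in EMT6. The sources used here do not state a pairing, and so few libraries a group cannot decide whether the numbers mark one. With a replicate block, 26 members were called in 4T1, 23 in EMT6 (without Derl1, edgeR adjusted p = 0.0557) and 24 between the lines, with medians of -0.31 and 0.15, and the EMT6 count of lower PERK and ATF4 genes was 7 in place of 11. With 3 libraries a group, depth limits Derl3, at 0 to 7 counts.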

Other observations

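The same ER stress element was found near the starts of 35 genes that are not members, of which 15 were tested in each line. In 4T1, 7 of these were called higher and 2 lower, with a median log2 change of 0.13. In EMT6, 2 were called higher and 5 lower, with a median of -0.15. The share called was 60% in 4T1 and 46.7% in EMT6, against 57.0% and 56.0% of all tested genes. By direction, 28.0% of all genes were called higher and 29.0% lower in 4T1, and 27.9% and 28.2% in EMT6. For comparison, members with the element had medians of -0.39 in 4T1 and 0.25 in EMT6. Among the genes outside the list, named after their values were seen, Ero1b, an oxidase that feeds disulfide isomerases, stood in 4T1 at 0.68 and in EMT6 at -0.20, the second not called. Nucb1, a calcium-binding protein of the Golgi, was called higher in both lines, at 0.14 in 4T1 and 0.19 in EMT6. Lgalsl was called lower in both, at -0.49 and -0.18. Acacb, an acetyl-CoA carboxylase, was called higher in 4T1 at 0.39 and lower in EMT6 at -1.25. These are descriptions of the calls, and the difference between the sets of genes was not tested.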
